A study of Mus musculus with 48 samples.

Results

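The 45 collagen genes measured in mouse skin comprised 42 collagen chains, chosen as every gene whose symbol is Col, a number, the letter a and a number, together with 3 matrix genes, lumican (Lum), decorin (Dcn) and Sparc. They were 45 of the 18194 genes that a probe set naming a single gene represented. Each was read from its probe set of highest mean, and 37 of the 45 passed the filter on low signal and were tested. By textbook class, 11 chains were fibrillar (9 tested), 9 belonged to the basement membrane and the zone beneath it (8 tested), 22 were other collagens (17 tested), and all 3 matrix genes were tested. The 8 untested members, Col10a1, Col11a2, Col24a1, Col26a1, Col4a3, Col6a5, Col9a2 and Col9a3, lay above the median of the whole table (6.70) in fewer than 3 arrays.

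Skin RNA of C3H/HeJ mice had been hybridised to 48 arrays in a study on preventing alopecia areata, the autoimmune loss of hair, by inhibiting the interleukin-15 pathway. In that model, skin of affected animals is known to be grafted onto unaffected mice. The 3 treatments were il15rb, an antibody to the receptor's beta chain as far as the study is known, jak3i, known as the kinase inhibitor tofacitinib, and jak12i, known as the kinase inhibitor ruxolitinib. Vehicle mice received PBS by injection (ip), pump or gavage, and the titles also name a sham group. At week 5 the groups were il15rb (n = 3), PBS ip (n = 4) and sham (n = 4). Week 6 held jak3i (n = 5), PBS pump (n = 3), jak12i (n = 5) and PBS gavage (n = 5), and week 13 held each treatment and each PBS route with n = 3. All mice were of that 1 strain, no genotype, sex or age is labelled, and what the sham procedure left out is not described. No label states which route an agent was given by, so il15rb was set against PBS ip, jak3i against PBS pump and jak12i against PBS gavage from what is known of the study. One more week 5 array was left out because its title says PBS ip and its treatment label says IL15.

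Collagens are built from 3 polypeptide chains wound into a triple helix. In the dermis, types I, III and V form the banded fibrils that give skin its strength, type VI forms beaded microfilaments, and types XII and XIV decorate the fibril surface, while lumican and decorin are small proteoglycans that bind fibrils and regulate their thickness, and SPARC is a secreted collagen-binding protein. Type IV forms the sheet-like network of basement membranes under epidermis, around follicles and around vessels, type VII anchors the epidermal basement membrane to the dermis, and type XVII is a membrane protein of the hemidesmosome in basal keratinocytes.

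Signals are given on the log2 scale, on which a change of 1 is a 2-fold difference, and changes as estimate ± standard error (SE). A gene was called, and is said to have risen or fallen, where limma's adjusted p was under 0.05 over all 13648 genes tested. The series describes its samples as biological replicates, and the spread that p-values rest on, between arrays, may be partly technical. The number of arrays limits the precision. Signals of different probe sets were not compared with each other, and levels were not tested between weeks, because the upper quartile of an array lay between 8.47 and 8.68 at week 5, 8.15 and 8.35 at week 6 and 8.69 and 8.78 at week 13. The arrays were skin by their markers: the mean of 6 basal epidermis genes lay between 11.62 and 12.46 and that of 10 fibroblast genes between 10.39 and 11.70. Skeletal muscle genes were also high, at a median of 13.53 over the arrays, except in replicate 5 of PBS gavage at week 6 (7.78) and, at week 13, replicate 3 of PBS ip (7.42) and replicate 2 of PBS pump (7.75), the 3 arrays called low in muscle signal here. Replicate 1 of PBS ip at week 13 followed at 10.52 and was not counted among them. Sham replicate 4 stood apart, with 14 hair shaft genes at 10.38 against 6.09 to 6.33 in the other sham arrays and the mean of the 9 fibrillar collagens at 10.10 against 9.20 to 9.42. Because whole skin was profiled, fewer cells of a type and less RNA per cell cannot be told apart.

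Many, but not all, of the dermal fibril genes varied together from array to array. With each group's mean removed, the signal of Col1a1, the alpha 1 chain of type I collagen, correlated over the 47 arrays with Col1a2 (Pearson r = 0.901), its partner chain, with Col6a2 (0.897), Sparc (0.890), Col6a3 (0.883) and Col3a1 (0.881), the type III chain. Values were lower for Col14a1 (0.486), Col12a1 (0.475) and Dcn (0.385). They were lowest among the tested fibrillar chains for Col27a1 (0.237), Col11a1 (0.183) and Col2a1 (0.071). Col11a1 lay above the median of the whole table in 13 of the 47 arrays and Col2a1 in 7. At the other end of the tested members stood chains of the epidermis and its basement membrane, Col17a1 (-0.222), Col4a5 (-0.240) and Col4a6 (-0.305). Of these, Col4a5 was negative at week 13 alone (0.386 at week 5, 0.131 at week 6 and -0.707 at week 13). Without sham replicate 4 the value for Col1a2 was 0.884, for Col6a2 0.888 and for Col3a1 0.869. Over all 666 pairs of tested members the median r was 0.142. Such values are descriptions only, since all genes of a point come from the same array and piece of skin. The mean of 21 genes for collagen folding and crosslinking gave r = 0.799 with Col1a1, that of 18 interstitial matrix genes 0.692, that of 10 fibroblast genes 0.570 and that of 6 T cell genes -0.359.

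**Figure D1:**
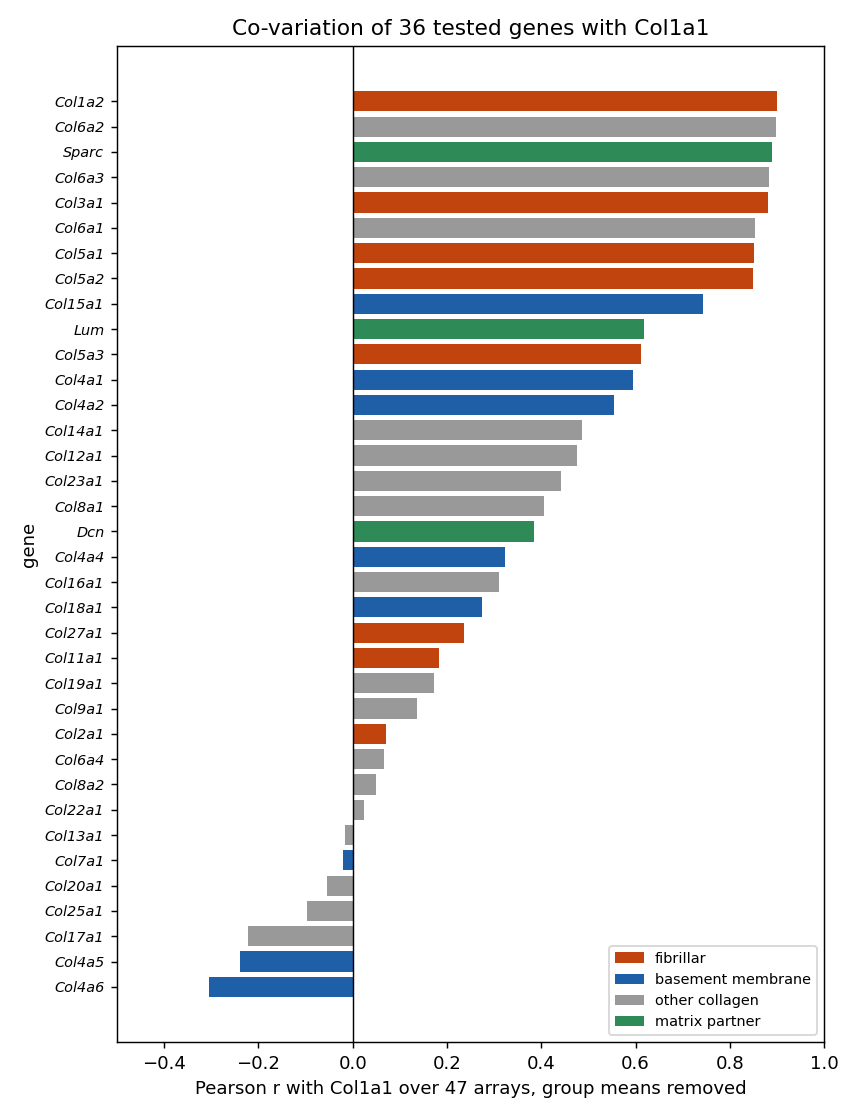
Pearson r of each tested member with Col1a1 over 47 arrays after removal of group means, coloured by collagen class. Col1a2, Col6a1, Col6a2, Col6a3, Sparc and Col3a1 lie between 0.85 and 0.90, and Col17a1, Col4a5 and Col4a6 lie below -0.2.

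Among the pairs, Col4a1 and Col4a2, the 2 chains of the ordinary basement membrane network, had r = 0.928, and Col6a1 and Col6a2 had 0.976. Col3a1 and Col5a2 had r = 0.930, Lum and Dcn had 0.788, and Col4a5 and Col4a6 had 0.434. Col4a1 and Col4a2 lie head to head on opposite strands of chromosome 8, and their RefSeq start sites (GRCm38.p6) are 21 bases apart. Their promoter windows, 250 bases before to 50 bases after the start, are shown because they overlap. Capitals mark the 78 bases, chr8:11312777-11312854, that both windows hold, each read 5′ to 3′ on its gene's strand. The first line is chr8:11312777-11313076 on the minus strand and the second is chr8:11312555-11312854 on the plus strand.
Col4a1: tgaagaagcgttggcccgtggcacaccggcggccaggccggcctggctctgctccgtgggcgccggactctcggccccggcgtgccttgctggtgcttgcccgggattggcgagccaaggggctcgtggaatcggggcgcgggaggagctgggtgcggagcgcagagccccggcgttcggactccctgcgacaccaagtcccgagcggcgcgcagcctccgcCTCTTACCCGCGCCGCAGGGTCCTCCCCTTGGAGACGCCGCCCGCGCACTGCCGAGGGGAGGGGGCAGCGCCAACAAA
Col4a2: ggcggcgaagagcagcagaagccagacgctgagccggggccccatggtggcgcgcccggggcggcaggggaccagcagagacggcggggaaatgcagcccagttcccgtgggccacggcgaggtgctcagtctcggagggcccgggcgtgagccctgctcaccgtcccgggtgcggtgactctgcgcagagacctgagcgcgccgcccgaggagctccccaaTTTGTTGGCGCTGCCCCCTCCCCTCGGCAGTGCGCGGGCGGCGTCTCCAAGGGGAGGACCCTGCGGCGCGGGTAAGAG
The bases G and C made up 74.0% of the Col4a1 window and 73.7% of the Col4a2 window. Each held 1 CCAAT on either strand, and the shared stretch held 0. RefSeq gave windows for 34 of the 45 members, 37 windows in all. CCAAT, searched on both strands, was present in 35.1% of these against 37.4% of the 32851 windows of all genes, and TATAAA in 13.5% against 13.6%. By these letters the members' windows were close to those of all genes. Col4a5 and Col4a6 are likewise neighbours in opposite directions on chromosome X, but their starts are 1343 bases apart and their windows share 0 bases.

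At week 5, no collagen gene or matrix partner passed the test under il15rb, whether set against PBS ip or against sham. Of the 9 fibrillar chains 7 were lower than in PBS ip and 8 lower than in sham. In il15rb skin Col1a1 was at 8.88, 9.75 and 9.74, in PBS ip at 9.18, 10.32, 10.13 and 10.27, and in sham at 9.94, 10.28, 9.66 and 11.74. The il15rb arrays overlapped with both controls, and sham replicate 4 was the highest of all. Col1a1 differed by -0.52 ± 0.44 from PBS ip (adjusted p = 1) and by -0.95 ± 0.44 from sham (adjusted p = 0.404). These comparisons share the il15rb arrays, so their values are given side by side and are not independent.

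Against PBS ip, 0 of 37 members were called, where 0.0733% of all genes were, and 2 members had an unadjusted p under 0.05 against 4.02% of all genes, both lower (2.81% of all genes): Col27a1, a fibrillar chain best known from cartilage, and Col6a3, a type VI chain. Col27a1 was at 7.42, 6.91 and 7.32 in il15rb and at 7.77, 7.77, 7.65 and 7.66 in PBS ip, with no overlap. Members that did not overlap between the groups numbered 2, Col27a1 and Col5a3, against 7.88% of all genes. Among dermal genes Col1a2 differed by -0.41 ± 0.22, Col3a1 by -0.32 ± 0.19, Col5a2 by -0.56 ± 0.32, Col6a1 by -0.42 ± 0.28, Sparc by -0.39 ± 0.24, Lum by -0.38 ± 0.24 and Dcn by -0.12 ± 0.14. In the basement membrane zone Col4a1 differed by -0.24 ± 0.20, Col4a2 by -0.26 ± 0.20, Col7a1 by -0.02 ± 0.13 and Col17a1 by 0.01 ± 0.15, and the adjusted p of all 11 genes was 1. The median change was -0.41 over the 9 fibrillar chains, -0.18 over the 8 basement membrane genes, 0.01 over the 17 other collagens and 0.01 over all genes. All 10 fibroblast genes were lower, by a median of -0.32 (10.42 to 10.46 in il15rb, 10.44 to 10.95 in PBS ip), as were 5 of 6 T cell genes (2 of them called), and their part in the fibrillar difference was not tested. PBS ip replicate 2 had low fibrillar signals, and without it the fibrillar median was -0.49, with 8 members at an unadjusted p under 0.05 against 7.42% of all genes and again none called.

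Against sham, 0 of 37 were called (0.0293% of all genes), and 10 had an unadjusted p under 0.05 (11.6% of all genes), 1 of them higher (5.77%) and 9 lower (5.84%). Of the 9 fibrillar chains 6 were among the lower ones, and the median of the 9 was -0.52. Col3a1 differed by -0.52 ± 0.19 (adjusted p = 0.279), Col1a2 by -0.58 ± 0.22 (adjusted p = 0.272), Col5a2, a type V chain, by -0.74 ± 0.32 (adjusted p = 0.368), Sparc by -0.63 ± 0.24 (adjusted p = 0.284) and Lum by -0.74 ± 0.24 (adjusted p = 0.219). Col6a1 (-0.47 ± 0.28), Dcn (-0.26 ± 0.14), Col4a1 (-0.36 ± 0.20), Col4a2 (-0.38 ± 0.20) and Col7a1 (0.06 ± 0.13) had adjusted p between 0.453 and 0.914. Col17a1 differed upward, by 0.32 ± 0.15 (adjusted p = 0.405). For 10 members all il15rb arrays lay on one side of all sham arrays, against 13.1% of all genes. A part of this rested on sham replicate 4. Without that array the fibrillar median was -0.37, the median over the 37 members moved from -0.31 to -0.20, and 2 members, Lum and Col27a1, kept an unadjusted p under 0.05, against 6.37% of all genes. Lum then differed by -0.62 ± 0.26 (adjusted p = 0.677) and Col1a1 by -0.50 ± 0.43 (adjusted p = 0.945).

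**Figure D2:**
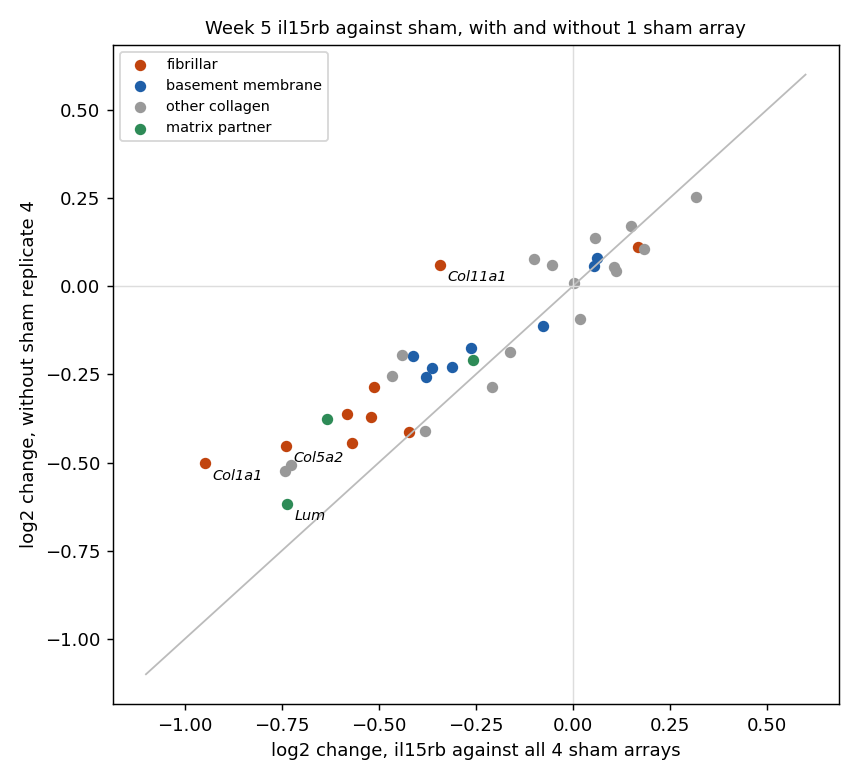
Log2 change of each tested member in week 5 il15rb skin against sham, with all 4 sham arrays on the x axis and without sham replicate 4 on the y axis. All 9 fibrillar chains but Col2a1 have a higher value without that array, with Col1a1 moving from -0.95 to -0.50.

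PBS ip against sham, which sets vehicle skin beside sham skin, gave 0 members called (0.0293% of all genes) and 1 with an unadjusted p under 0.05 (5% of all genes). That gene was Col17a1, which differed by 0.31 ± 0.14 (adjusted p = 0.884). The fibrillar median was -0.18 with all sham arrays and 0.02 without sham replicate 4. Col1a1 differed by -0.43 ± 0.41 and Col3a1 by -0.20 ± 0.18, and the other 9 panel genes (Col1a2, Col5a2, Col6a1, Col4a1, Col4a2, Col7a1, Lum, Dcn and Sparc) lay between -0.36 for Lum and 0.08 for Col7a1, each with an adjusted p of 1.

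At week 6, jak3i skin had a lower signal of 1 member, Col14a1, a collagen of the fibril surface, than PBS pump skin. It was at 8.16, 9.61, 8.96, 8.53 and 8.96 in jak3i and at 9.55, 10.84 and 10.93 in PBS pump. Pump replicate 1 lay within the jak3i range and the other two pump arrays lay above it. Col14a1 fell by 1.59 ± 0.35 (3.02-fold, limma adjusted p = 0.00501). Its other probe sets ranged from -0.94 to -0.12. It was the only one of 37 called, against 4.1% of all genes, 3.64% lower and 0.454% higher. The arrays of both groups were apart for 1 member, Col8a2, which was higher in jak3i by 0.34 ± 0.22 (adjusted p = 0.478), against 9.12% of all genes. Col14a1 was no longer called without pump replicate 2 or replicate 3, while 4 members were called lower without pump replicate 1. Nor was Col14a1 called against PBS of the other route, where it differed by -0.35. All 9 fibrillar chains were negative, by a median of -0.21 (the median of all members was -0.15, or 0.14 against PBS of the other route), with Col1a1 at -0.21 ± 0.42 (adjusted p = 0.899) and Col3a1 at -0.16 ± 0.19 (adjusted p = 0.776). Col1a2 differed by -0.08 ± 0.21, Col5a2 by -0.53 ± 0.31 and Col6a1 by -0.35 ± 0.27 (adjusted p between 0.426 and 0.929). In the basement membrane, Col4a1 differed by -0.40 ± 0.19 (adjusted p = 0.286), Col4a2 by -0.50 ± 0.19 (adjusted p = 0.142) Col7a1 by 0.26 ± 0.12 (adjusted p = 0.286) and Col17a1 by 0.25 ± 0.14 (adjusted p = 0.425). Lum differed by -0.36 ± 0.23 (adjusted p = 0.485), Dcn by -0.17 ± 0.13 (adjusted p = 0.595) and Sparc by -0.36 ± 0.23 (adjusted p = 0.469).

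Beside Col14a1, 7 of 8 macrophage genes were called lower, with list means of 8.97 to 9.94 in jak3i and 10.43 to 11.17 in PBS pump, and 2 of 10 fibroblast genes, with means of 10.73 to 11.19 and 11.25 to 11.61. Their part in the fall of Col14a1 was not tested. Of the 13 genes for collagen breakdown and its inhibitors, 2 were called lower and 0 higher: Fap, a fibroblast surface protease, fell by 1.05 ± 0.25, and Mmp3, a matrix protease, fell by 1.43 ± 0.37. Nid1, a linker of laminin and type IV collagen, was the only one of 13 basement membrane partners called and fell by 0.91 ± 0.25. P3h4, part of a collagen-modifying complex, rose by 0.48 ± 0.11 as the only one of 21 folding genes.

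Under jak12i at week 6, 4 of the 8 basement membrane genes and 1 of the 9 fibrillar chains were called lower than in PBS gavage skin, and none of these 5 calls was left without gavage replicate 5. Of 37 members 5 fell and 0 rose, against 9.59% of all genes called, 8.1% lower and 1.49% higher. They were Col4a1, Col4a2, Col15a1, a vessel and muscle basement membrane collagen, Col7a1, and the type V chain Col5a3, the only fibrillar chain among them. Col4a1 was at 10.34, 10.79, 10.83, 10.90 and 11.03 in jak12i and at 11.55, 11.42, 10.92, 11.39 and 11.41 in PBS gavage, so that only gavage replicate 3 lay within the jak12i range. It fell by 0.56 ± 0.17 (adjusted p = 0.0246), Col4a2 fell by 0.53 ± 0.16 (adjusted p = 0.0329) and Col15a1 fell by 0.54 ± 0.16 (adjusted p = 0.0273). Col5a3 was at 7.30, 7.88, 8.001, 8.19 and 8.15 in jak12i and at 8.72, 8.80, 8.40, 8.37 and 8.90 in PBS gavage. Every jak12i array lay below every gavage array, and Col5a3 fell by 0.73 ± 0.20 (adjusted p = 0.0173). Col7a1 also showed no overlap and fell by 0.33 ± 0.11 (adjusted p = 0.042). The second probe set of Col4a1 lay at -0.16 and that of Col5a3 at -0.225. With the mean of all probe sets of a gene, Col4a1 was no longer called.

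The main fibril chains showed wider spread. Col1a1 was at 8.78, 10.23, 10.36, 10.82 and 10.93 in jak12i and at 11.18, 10.99, 10.89, 11.13 and 11.24 in PBS gavage, where jak12i replicate 1 stood more than 1 unit below its group. The difference was -0.87 ± 0.37 (adjusted p = 0.13), and for Col3a1 it was -0.47 ± 0.16 (adjusted p = 0.055). Col1a2 differed by -0.36 ± 0.18 (adjusted p = 0.198), Col5a2 by -0.67 ± 0.27 (adjusted p = 0.107), Col6a1 by -0.44 ± 0.24 (adjusted p = 0.232) and Sparc by -0.48 ± 0.20 (adjusted p = 0.122). Lum differed by -0.38 ± 0.20 (adjusted p = 0.224), and Dcn and Col17a1 lay near 0, at -0.02 ± 0.11 and -0.05 ± 0.12. The medians were -0.47 for the fibrillar and -0.33 for the basement membrane class, against -0.03 for all genes, and 4 members did not overlap (8.1% of all genes).

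Most of these calls were lost with single arrays: 1 of the 5, Col7a1, was still called without jak12i replicate 1, 2 without gavage replicate 1, 2 without gavage replicate 2, 3 without jak12i replicate 2 and 0 without gavage replicate 5, the array with low muscle signal. Without all 3 arrays of low muscle signal Col4a1 differed by -0.54 ± 0.18 (adjusted p = 0.0567) and Col5a3 by -0.67 ± 0.22 (adjusted p = 0.0643). Hair shaft genes were high in jak12i replicates 2 and 3, the group spanning 6.23 to 10.74 against 6.16 to 7.35 in PBS gavage, and without both arrays only Col4a2 was called among the 5, which fell by 0.62 ± 0.19 (adjusted p = 0.0486). Of 21 folding and crosslinking genes, 3 were called lower: Serpinh1, the chaperone of procollagen, fell by 0.74 ± 0.22, P4ha1, a subunit of prolyl hydroxylase, fell by 0.29 ± 0.08, and Plod3, a lysyl hydroxylase, fell by 0.28 ± 0.08. Timp4, an inhibitor of matrix proteases, rose by 1.07 ± 0.30, and Omd, a small proteoglycan, rose by 0.55 ± 0.16. Smad2, a transducer of TGF beta signals, fell by 0.28 ± 0.09.

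Between the PBS gavage and PBS pump skins of week 6, members were called about as often as all genes, but in unlike directions. Called members were mostly lower in gavage skin, and called genes as a whole mostly higher. In gavage skin 10 members were lower and 3 higher, 13 of 37 in all, against 37.2% of all genes called, 9.6% lower and 27.6% higher. Lower were Col8a1, a network collagen of vessel walls, by 1.61 ± 0.40 with overlap, Col14a1, Col19a1, Col25a1, Col6a4, Col5a2, Col4a1, Col4a2, Sparc and Col9a1, the last a cartilage-associated chain outside the naming rule, named after its values were seen, whose second probe set lay at 0.05. Higher were Col4a5, at 9.33, 9.38, 9.83, 9.19 and 9.35 in gavage against 8.99, 8.54 and 8.58 in pump, a rise of 0.71 ± 0.18, and Col7a1 (0.41 ± 0.12) and Col17a1 (0.44 ± 0.14). Sparc fell by 0.81 ± 0.23, Col4a2 fell by 0.66 ± 0.19 and Col5a2 fell by 0.86 ± 0.31 (adjusted p = 0.0273). Col1a1 (-0.50 ± 0.42), Col1a2 (-0.27 ± 0.21), Col3a1 (-0.29 ± 0.19), Col6a1 (-0.44 ± 0.27), Lum (-0.34 ± 0.23) and Dcn (-0.16 ± 0.13) did not pass, with adjusted p between 0.21 and 0.375. For 10 members no array of one group lay within the other, against 34.2% of all genes. The count fell from 13 to 5 without pump replicate 2 and to 5 without pump replicate 3. Endothelial genes were called lower in gavage skin for 3 of 6 (list means 7.64 to 8.23 against 8.28 to 8.52 in pump), fibroblast genes for 3 of 10 (10.95 to 11.35 against 11.25 to 11.61) and macrophage genes for 5 of 8 (9.71 to 10.68 against 10.43 to 11.17), and basal epidermis genes higher for 2 of 6 (12.03 to 12.19 against 11.66 to 12.04). Their part in the differences was not tested. This comparison shares its arrays with both treatment comparisons of week 6.

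**Figure D3:**
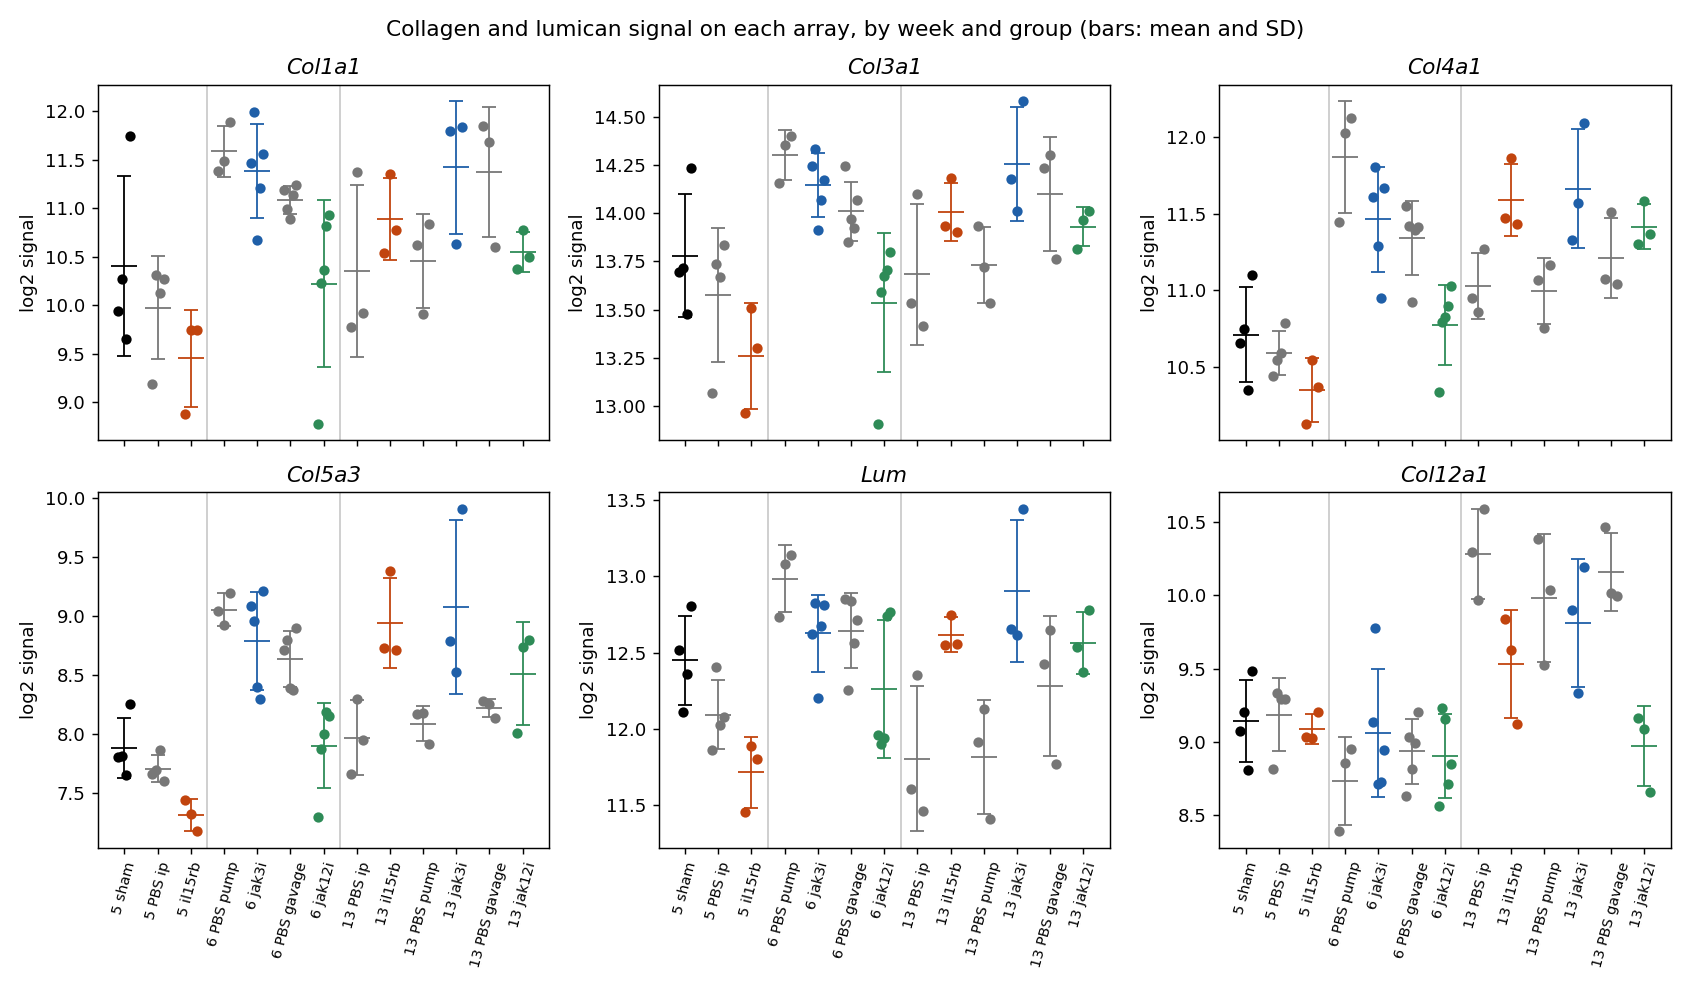
Log2 signal of Col1a1, Col3a1, Col4a1, Col5a3, Lum and Col12a1 in each of the 47 arrays by group, each point 1 array and each bar the group mean. Lum and Col5a3 are above their vehicle in all 3 arrays of week 13 jak3i, and Col1a1 arrays overlap between most groups.

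By week 13, il15rb skin had higher signals of both small proteoglycans and of 3 basement membrane chains than PBS ip skin, and lower signals of Col12a1 and Col16a1, collagens of the fibril surface. Of 37 members, 8 rose and 4 fell, against 25.7% of all genes called, 15.1% higher and 10.6% lower. Dcn was at 13.60, 13.57 and 13.54 in il15rb and at 12.75, 13.42 and 12.64 in PBS ip. The il15rb arrays lay close together above all PBS ip arrays, and Dcn rose by 0.63 ± 0.14 (1.55-fold, adjusted p = 0.00134). Lum was at 12.55, 12.75 and 12.56 against 11.60, 12.35 and 11.46, again without overlap, and rose by 0.81 ± 0.26 (adjusted p = 0.0182).

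In the basement membrane class, Col4a4, a chain of a specialised type IV network, rose by 1.001 ± 0.26 (adjusted p = 0.00452), with values of 7.94, 8.25 and 8.13 against 7.17, 7.67 and 6.47. Col15a1 rose by 0.74 ± 0.21 (adjusted p = 0.00774) and Col4a1 rose by 0.56 ± 0.21 (adjusted p = 0.0487). Col18a1, the precursor of endostatin, fell by 0.70 ± 0.21 (adjusted p = 0.0144) with overlapping groups. Col5a3 was the only fibrillar chain called: it was at 8.73, 9.39 and 8.71 against 7.67, 8.30 and 7.95 and rose by 0.97 ± 0.26 (adjusted p = 0.00618). Its second probe set differed by 0.15.

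Col13a1, a membrane-spanning collagen of cell adhesion sites, was at 6.86, 7.53 and 7.77 against 6.49, 6.47 and 6.58 and rose by 0.88 ± 0.18 (1.83-fold, adjusted p = 0.000458), the smallest p of the set. Col23a1 rose by 1.04 ± 0.23 (adjusted p = 0.00108) although PBS ip replicate 2 overlapped with il15rb, and Col25a1 fell by 0.53 ± 0.12 (adjusted p = 0.0018) while its other probe set lay at 0.10. Col16a1, of the fibril-associated kind, was at 9.77, 9.78 and 9.82 against 10.35, 10.11 and 10.67 and fell by 0.59 ± 0.12 (adjusted p = 0.00063). Col12a1 fell by 0.75 ± 0.25 (adjusted p = 0.0243). It lies outside the naming rule and was named after its values were seen, and its other probe sets ranged from -0.54 to 0.15.

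Type I and III collagen did not pass: Col1a1 differed by 0.53 ± 0.47 (adjusted p = 0.433), Col1a2 by 0.46 ± 0.23 (adjusted p = 0.141) and Col3a1 by 0.32 ± 0.21 (adjusted p = 0.265). Neither did Col5a2 (0.16 ± 0.35), Col6a1 (0.39 ± 0.30), Col4a2 (0.31 ± 0.21), Col7a1 (-0.18 ± 0.14), Col17a1 (0.29 ± 0.16) or Sparc (0.20 ± 0.26). Groups did not overlap for 13 members, against 36.8% of all genes, and the median of the members was 0.20 against 0.01 for all genes. Of the 11 called members refitted without each array in turn, 7 were still called without PBS ip replicate 1, 6 without PBS ip replicate 3 and 8 without il15rb replicate 2. Col4a1 was lost in all 6 refits. The count of members fell from 12 to 7 and 6 without PBS ip replicates 1 and 3. Without PBS ip replicate 2 it grew to 11 higher and 5 lower, where 2433 of the 13648 genes were called higher and 1941 lower. Of the 9 fibrillar chains 3 were then called, all higher, with a median of 0.53 against 0.32 with all arrays. Col1a1 was at 11.375 in PBS ip replicate 2 and at 9.772 and 9.915 in the other PBS ip arrays, so the fibrillar result depended on that array. Adipocyte genes were called higher for 6 of 6 (list means 10.86 to 11.28 against 8.77 to 9.89), muscle genes for 11 of 12 (13.29 to 13.67 against 7.42 to 12.96) and endothelial genes for 4 of 6 (8.64 to 8.72 against 7.81 to 8.20), T cell genes lower for 6 of 6 (7.13 to 7.26 against 8.11 to 8.68), and their part in the collagen changes was not tested. Without the 3 arrays of low muscle signal, 7 members were called, among them Dcn (0.49 ± 0.15), Col5a3 (0.96 ± 0.30) and Col4a1 (0.68 ± 0.24), while Lum (0.64 ± 0.29, adjusted p = 0.125) was not.

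Under jak3i at week 13, 9 of 37 members rose and 0 fell relative to PBS pump, against 16% of all genes called, 9.67% higher and 6.32% lower. All 3 matrix partners were among them, with the type IV pair, Col15a1, Col5a3 and both type VIII chains, and none of the 9 overlapped between the groups. Lum was at 12.65, 12.62 and 13.45 in jak3i and at 11.91, 12.13 and 11.40 in PBS pump, and it rose by 1.09 ± 0.26 (2.13-fold, adjusted p = 0.00311). Dcn rose by 0.50 ± 0.14 (adjusted p = 0.0153), and Sparc, at 13.13, 12.78 and 13.46 against 12.58, 11.99 and 12.42, rose by 0.79 ± 0.26 (adjusted p = 0.0293). Other probe sets of Sparc ranged from -0.07 to 1.07.

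Col8a1 had the largest rise of the 9, by 1.59 ± 0.45 (adjusted p = 0.0122), from 8.77, 7.93 and 8.18 in PBS pump to 9.80, 9.32 and 10.52 in jak3i. Its partner Col8a2 rose by 0.69 ± 0.24 (adjusted p = 0.046). Col4a1 was at 11.33, 11.57 and 12.09 against 11.07, 10.75 and 11.17 and rose by 0.67 ± 0.21 (adjusted p = 0.029), with Col4a2 at 0.59 ± 0.21 (adjusted p = 0.0489) and Col15a1 at 0.74 ± 0.21 (adjusted p = 0.0121). Col5a3 rose by 0.99 ± 0.26 (adjusted p = 0.00826), its second probe set lying at -0.11. In most of these genes jak3i replicate 3 was the highest array.

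Of the 9 fibrillar chains 7 were higher and 2 lower, and only Col5a3 passed. Col1a1 was at 11.79, 10.63 and 11.83 in jak3i and at 10.62, 9.91 and 10.83 in PBS pump. Jak3i replicate 2 lay between the pump arrays and the other two lay above them, and the difference was 0.97 ± 0.47 (adjusted p = 0.165). It was 0.52 ± 0.21 for Col3a1 (adjusted p = 0.0812), 0.55 ± 0.23 for Col1a2 (adjusted p = 0.099), 0.78 ± 0.35 for Col5a2 (adjusted p = 0.125) and 0.62 ± 0.30 for Col6a1 (adjusted p = 0.163). Col7a1 differed by 0.05 ± 0.14 (adjusted p = 0.862) and Col17a1 by 0.41 ± 0.16 (adjusted p = 0.0744). Over all 37 members 30 were positive, with a median of 0.50 against 0.03 for all genes, and 16 did not overlap, against 29.7% of all genes. Without jak3i replicate 3 the count fell from 9 to 2, with Lum the only one of the 9 still called, and without pump replicate 2, the array of low muscle signal, 4 of the 9 were still called.

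The cell type lists moved here too, and their part was not tested: endothelial genes were called higher for 6 of 6 (8.84 to 9.49 against 7.39 to 8.26), adipocyte genes for 4 of 6, fibroblast genes for 3 of 10 (11.12 to 11.70 against 10.46 to 11.01), and T cell genes lower for 5 of 6 (6.96 to 7.15 against 8.05 to 8.48). List means of skeletal muscle genes (13.215 to 13.332 against 7.752 to 12.78) and smooth muscle genes (9.88 to 10.36 against 9.29 to 9.55) were higher without overlap. Of 18 interstitial matrix genes 9 were called higher and 0 lower, among them the small proteoglycans Aspn (1.21 ± 0.28), Prelp (0.87 ± 0.20) and Ogn (1.17 ± 0.28). Pcolce and Pcolce2, which enhance the cleavage of procollagen, rose by 1.10 ± 0.29 and 0.95 ± 0.31, and the crosslinking enzyme gene Loxl1 rose by 0.93 ± 0.30.

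Under jak12i at week 13, Col8a2, Col17a1, Col4a6 and Col13a1 were higher than in PBS gavage skin, and Col12a1, Col16a1 and Col11a1 were lower. These 4 rises and 3 falls among 37 members stand against 21.9% of all genes called, 11.6% higher and 10.3% lower, and none of the 7 overlapped. Col8a2 was at 8.996, 9.68 and 9.62 in jak12i and at 8.44, 7.93 and 7.80 in PBS gavage and rose by 1.38 ± 0.24 (2.59-fold, adjusted p = 9.21e-05). Col17a1, of the hemidesmosome, was at 12.70, 12.93 and 12.68 against 12.28, 11.91 and 11.96 and rose by 0.72 ± 0.16 (adjusted p = 0.0013). Col4a6, a chain of the epidermal type IV network, rose by 0.66 ± 0.16 (adjusted p = 0.00221), and Col13a1 rose by 0.63 ± 0.18 (adjusted p = 0.00971). In all 4 genes the arrays of each group were well apart.

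The falls concerned Col12a1, at 9.17, 9.09 and 8.66 against 10.47, 10.02 and 9.99, which fell by 1.19 ± 0.25 (2.28-fold, adjusted p = 0.00075), Col16a1, which fell by 0.44 ± 0.12 (adjusted p = 0.0105), and Col11a1. Other probe sets of Col12a1 ranged from -0.87 to 0.17. Col11a1, a minor fibrillar chain, was at 6.79, 5.82 and 6.45 in jak12i and at 7.32, 9.28 and 7.50 in PBS gavage, of which replicate 2 was far the highest, and it fell by 1.68 ± 0.52 (adjusted p = 0.0188). Col1a1 differed by -0.83 ± 0.47 (adjusted p = 0.22), Col1a2 by -0.17 ± 0.23 (adjusted p = 0.64) and Col3a1 by -0.17 ± 0.21 (adjusted p = 0.611). Col4a1 (0.21 ± 0.21), Col4a2 (0.11 ± 0.21), Lum (0.28 ± 0.26), Dcn (0.26 ± 0.14), Sparc (-0.26 ± 0.26), Col5a2 (-0.45 ± 0.35), Col6a1 (-0.33 ± 0.30) and Col7a1 (-0.11 ± 0.14) did not pass either.

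Of the 9 fibrillar chains 8 were negative, and the median of all members was -0.09 against 0.02 for all genes, but 0.18 against PBS of the other route and 0.09 against all routes pooled. Groups did not overlap for 11 members, against 37% of all genes. Without any 1 array, 6 or 7 of the 7 were still called. Hair shaft genes were called lower for 12 of 14 (6.08 to 6.95 against 9.16 to 10.98), adipocyte genes higher for 6 of 6 (10.99 to 11.53 against 9.41 to 10.18), endothelial genes higher for 6 of 6 (8.85 to 9.03 against 7.74 to 8.26) and T cell genes lower for 3 of 6 (7.44 to 7.59 against 8.07 to 8.22). List means of basal epidermis genes were higher (12.19 to 12.46 against 11.78 to 12.08). So were list means of fibroblast genes (11.130 to 11.297 against 10.801 to 11.115) and of smooth muscle genes (10.08 to 10.31 against 9.71 to 9.97), both without overlap. List means of suprabasal epidermis genes were lower (12.31 to 12.47 against 12.80 to 12.95). The part of these lists in the collagen changes was not tested. With the hair shaft mean as a covariate, 2 members were called in place of 7, and 6.34% of all genes. Hair shaft means did not overlap between jak12i and PBS gavage, so that fit cannot tell hair shaft signal from treatment.

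**Figure D4:**
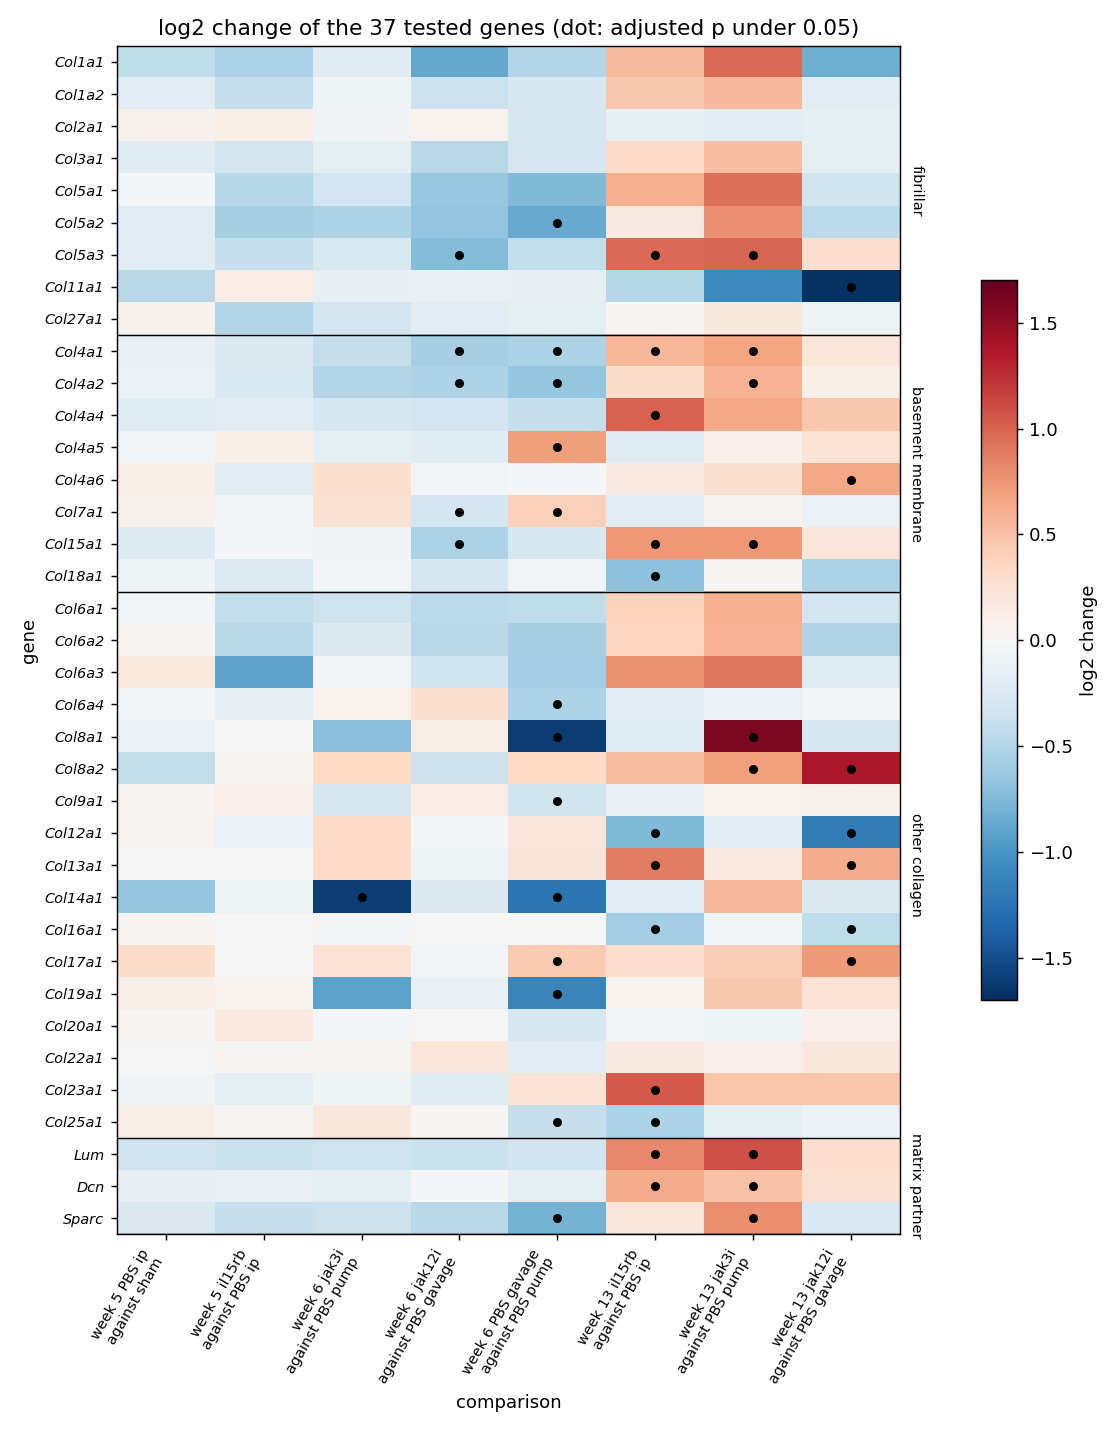
Log2 change of the 37 tested members in 8 comparisons, grouped by class, with a dot where the adjusted p was under 0.05. Week 5 columns hold no dot, and Col1a1, Col1a2 and Col3a1 hold none in any column.

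The 3 week 13 comparisons share no array, and 19 of 37 members were called in at least 1 of them. In the same direction, 9 were called in 2 comparisons and 0 in all 3. Over all genes 9.75% were called in 2 and 7.88% in all 3. Dcn, Lum, Col5a3, Col15a1 and Col4a1 rose under both il15rb and jak3i, 41.7% of the 12 called under il15rb and 55.6% of the 9 called under jak3i. Over all genes these shares were 42.3% and 68%. Under il15rb and jak12i, Col13a1 rose and Col16a1 and Col12a1 fell, 25% of the first list and 42.9% of the second, against 50.3% and 59.2% over all genes. Col8a2 rose under jak3i and jak12i, 11.1% and 14.3% of those lists against 59.8% and 43.7%.

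When the 3 treatments were averaged against the 3 vehicles (n = 9 and 9), 12 members rose and 5 fell, against 47% of all genes called, 26.5% higher and 20.5% lower. Named by smallest p were Dcn (0.46 ± 0.08), Col8a2 (0.87 ± 0.14), Col17a1 (0.48 ± 0.09), Col13a1 (0.56 ± 0.10), Col23a1 (0.66 ± 0.13), Col5a3 (0.75 ± 0.15), Lum (0.73 ± 0.15) and Col15a1 (0.56 ± 0.12), which rose, and Col16a1 (-0.36 ± 0.07) and Col12a1 (-0.71 ± 0.15), which fell. The type IV pair also passed, Col4a1 rising by 0.48 ± 0.12 (adjusted p = 0.00167) and Col4a2 by 0.34 ± 0.12 (adjusted p = 0.0216). Col1a1 differed by 0.22 ± 0.27 (adjusted p = 0.528), Col1a2 by 0.28 ± 0.13 (adjusted p = 0.0818), Col3a1 by 0.23 ± 0.12 (adjusted p = 0.121) and Col7a1 by -0.08 ± 0.08 (adjusted p = 0.424), and Col5a2 (0.16 ± 0.20), Col6a1 (0.23 ± 0.18) and Sparc (0.24 ± 0.15) did not pass either. By class, 5 of 8 basement membrane genes rose and 1 fell (median 0.35), 1 of 9 fibrillar chains rose and 1 fell (median 0.22), 4 of 17 other collagens rose and 3 fell, and 2 of 3 matrix partners rose. The median was 0.23 over the members and 0.01 over all genes. This average reuses the arrays of the 3 comparisons above and is no further evidence for them.

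Genes that act on collagen or lie beside it were also measured in the week 13 average, in which 47% of all genes were called and more of them higher (26.5%) than lower (20.5%). Of 21 folding and crosslinking genes 6 were called higher and 3 lower, among them P3h4 (0.41 ± 0.07), Colgalt2, which glycosylates collagen (0.48 ± 0.10), and P4hb, a subunit of prolyl hydroxylase, which fell by 0.21 ± 0.05. Pcolce2 (1.08 ± 0.18) and Pcolce (0.77 ± 0.17) were the 2 of 3 processing genes called. Of 13 genes of breakdown and its inhibition 6 rose and 3 fell: the inhibitor Timp4 rose by 1.68 ± 0.23, the collagenase Mmp13 fell by 2.34 ± 0.39 and the inhibitor Timp1 fell by 1.64 ± 0.27. Of 18 interstitial matrix genes 7 rose and 2 fell, with Ogn at 0.95 ± 0.16, the tenascin Tnxb at 0.75 ± 0.14, and Tnc, the tenascin of wounds, which fell by 1.52 ± 0.26.

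Of 13 basement membrane partners 6 rose and 0 fell, with the laminin chains Lama4 (0.58 ± 0.12), Lamb3 (0.55 ± 0.11) and Lamc1 (0.50 ± 0.10). Ddr2, a receptor for fibrillar collagen, was the only one of 5 collagen receptors called and rose by 0.48 ± 0.12. Of 15 genes of the TGF beta pathway, which drives collagen transcription, 7 rose and 3 fell, among them Tgfbr3 (0.66 ± 0.10), Tgfb2 (0.60 ± 0.11) and Smad4 (0.20 ± 0.04). Beside them, 6 of 6 adipocyte, 6 of 6 endothelial, 12 of 12 skeletal muscle, 3 of 5 smooth muscle and 5 of 10 fibroblast genes were called higher, and 12 of 14 hair shaft and 5 of 6 T cell genes lower. Their part in the collagen changes was not tested.

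The effect of each treatment was then set against its own effect at the earlier week. Each week has its own arrays, and their quartiles differ by week as given above. Time and differences between the sets of arrays therefore cannot be told apart here. For il15rb, week 13 minus week 5, 9 of 37 members differed, 7 upward and 2 downward, against 10.6% of all genes called, 6.58% upward and 4.07% downward, led by Dcn (0.75 ± 0.20), Col5a3 (1.36 ± 0.36) and Col23a1 (1.19 ± 0.32). For jak3i, week 13 minus week 6, 8 differed, all upward, against 9.2% of all genes called, 6.18% upward and 3.02% downward: Lum (1.45 ± 0.35), Col14a1 (2.15 ± 0.53), Col8a1 (2.29 ± 0.60), the type IV pair, Col5a3, Dcn and Sparc. Other probe sets of Col14a1 ranged from 0.152 to 1.505 in this difference. For jak12i 9 differed, 7 upward and 2 downward, against 16.1% of all genes called, 10.6% upward and 5.56% downward, led by Col8a2 (1.75 ± 0.31), Col17a1 (0.77 ± 0.20) and Col12a1 (-1.16 ± 0.32). These differences reuse the arrays of the single weeks. Among type I and III chains none passed: the smallest adjusted p was 0.0684, for Col1a2 under il15rb (0.87 ± 0.32), and the others lay between 0.123 and 0.977.

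These counts depended on single arrays. The share of all genes called moved with them and is given in parentheses. The il15rb count of 9 (10.6%) was 2 without PBS ip week 13 replicate 1 (5.25%), 2 without replicate 3 (4.57%) and 17 without replicate 2 (19.2%). It was 5 without il15rb week 13 replicate 2 (9.85%) or replicate 3 (5.61%) and 4 without il15rb week 5 replicate 1 (7.98%). For jak3i the count of 8 (9.2%) was 2 without jak3i week 13 replicate 3 (4.84%), and 13, 4 and 3 without pump week 6 replicates 1 (10.6%), 2 (5.49%) and 3 (6.02%). For jak12i the count of 9 (16.1%) was 5 without gavage week 6 replicate 2 (13.8%) or jak12i week 13 replicate 1 (13.9%), and 4 without jak12i week 13 replicate 3 (11.6%) or gavage week 13 replicate 3 (7.99%).

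Whether the 3 treatments acted unlike each other on collagen genes at week 13 was tested on the difference between their effects. No member passed in any of the 3 pairs, where 0.00733% of all genes did in each. The jak3i effect minus the jak12i effect had 13 members at an unadjusted p under 0.05, all upward, against 6.59% of all genes and 3.56% upward. Col8a1 differed by 1.87 ± 0.63 (adjusted p = 0.606), Sparc by 1.06 ± 0.36 (adjusted p = 0.626), Col1a1 by 1.79 ± 0.67 (adjusted p = 0.64) and Col3a1 by 0.69 ± 0.29 (adjusted p = 0.69). The median over the 9 fibrillar chains was 0.70, and over all members 0.46, or -0.07 with the vehicles of the other route. Jak3i minus il15rb had 5 such members (6.89% of all genes), with Col16a1 at 0.55 ± 0.18 (adjusted p = 0.35), and jak12i minus il15rb had 4 (6.21%), with Col8a2 at 0.84 ± 0.34 (adjusted p = 0.75) and Col1a1 at -1.36 ± 0.67 (adjusted p = 0.772). Each pair shares arrays with the other two, the vehicles differ in route, and missing the threshold does not show that the effects were alike.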

How the data were processed

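Values were used as the authors deposited them, as log2 signals of 45101 Affymetrix probe sets for which the submitters' processing notes name RMA, with no version given and no statement that all weeks were normalized together. The labels' protocols name total RNA, an in vitro transcription kit and biotin. Probe sets with 1 gene symbol numbered 34958, with several 932 and with none 9211, and 34754 were named through Entrez identifiers. Of the 45 members 29 had several probe sets, 88 in all, and the one of highest mean over the 47 grouped arrays stood for the gene.

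Limma 3.58.1 in R 4.3.3 fitted 13 group means to 47 arrays for the 13648 genes above the table's median (6.70) in at least 3 arrays, with empirical Bayes moderation and Benjamini-Hochberg adjustment within each comparison, called at 0.05. The procedure was checked on simulated data. Every adjusted p printed comes from this fit or, where arrays were left out, from the same model refitted to the remaining arrays. The members, lists and tests were chosen with earlier results of these data known, and the hair shaft covariate, the arrays left out and the low muscle arrays were picked from the data. The text names 12 panel genes (Col1a1, Col1a2, Col3a1, Col5a2, Col6a1, Col4a1, Col4a2, Col7a1, Col17a1, Lum, Dcn, Sparc), every called member or the 10 of smallest p, and up to 3 called genes of each list. Alternatives were other normalizations, filters, probe set rules, array sets, vehicles, moderation, a replicate block and each array left out. Replicate numbers are not stated to pair arrays. Same-numbered arrays, with group means removed, correlated between -0.452 and 0.233 over 28 pairs. Differently numbered arrays were not compared, so these values cannot show whether the numbers pair arrays. Promoter windows come from RefSeq.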

Additional observations from a re-analysis of the deposited data

Results flagged for a closer look

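Over 80 combinations of a gene or list and a group of 4 to 10 arrays, the gap of the extreme array to its neighbour was compared with Dixon's critical value, which chance exceeds in about 5% of groups. PBS ip week 5 replicate 2 was low in Col1a1 (9.18, others 10.13 to 10.32), Col1a2 (12.63, others 13.38 to 13.50), Sparc (11.45, others 11.97 to 12.05), the fibrillar mean (9.002, others 9.42 to 9.47) and the mean of other collagens (8.18, others 8.41 to 8.46). Sham replicate 4 was high in Col1a2 (14.07, others 13.12 to 13.25), Col5a2 (11.92, others 10.71 to 10.86) and Sparc (12.89, others 11.78 to 11.92). The jak12i week 6 replicate 1 was low in Col3a1 (12.91, others 13.59 to 13.80), Col5a2 (9.94, others 11.11 to 11.52), Col6a1 (10.04, others 10.60 to 10.81) and Col4a2 (8.83, others 9.35 to 9.47). PBS gavage week 6 replicate 3 was low in Col4a1 (10.92, others 11.39 to 11.55).

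Effects of a treatment that differed between weeks, as limma tested on the later minus the earlier effect, came to 26. In them, time and the set of arrays cannot be told apart. For il15rb they were Dcn at 0.75 (adjusted p = 0.0121), Col5a3 at 1.36 (0.0126), Col23a1 at 1.19 (0.0135), Col13a1 at 0.88 (0.0175), Col16a1 at -0.60 (0.0192), Lum at 1.19 (0.0251), Col4a4 at 1.19 (0.0264), Col6a3 at 1.67 (0.0265) and Col25a1 at -0.54 (0.0335), the numbers in parentheses being limma's adjusted p. For jak3i they were Lum at 1.45 (0.00633), Col14a1 at 2.15 (0.00814), Col4a2 at 1.09 (0.0113), Col8a1 at 2.29 (0.0121), Col4a1 at 1.07 (0.0145), Col5a3 at 1.25 (0.02), Dcn at 0.66 (0.0242) and Sparc at 1.16 (0.0264). For jak12i they were Col8a2 at 1.75 (0.000237), Col17a1 at 0.77 (0.00811), Col12a1 at -1.16 (0.011), Col4a6 at 0.71 (0.0117), Col13a1 at 0.72 (0.026), Col5a3 at 1.02 (0.031), Col15a1 at 0.75 (0.046), Col4a1 at 0.77 (0.0461) and Col16a1 at -0.44 (0.0495).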

How the results depend on the processing

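No member was called in any of the 3 week 5 comparisons or the 3 differences between treatments under any alternative run. Counts of called members that moved by over 1.5 times follow, each with the share of all genes called in parentheses. In week 6 jak3i the count of 1 was 5 against PBS of the other route (45.8%) and 5 against all routes pooled (26.2%), where the share of members lay below that of all genes. In week 6 jak12i the count of 5 was 3 with quantile normalization (7.72%), 3 with the arrays of that week alone (6.3%), 1 with the groups compared alone (4.13%), 21 against the other route (29.1%), 8 against pooled routes (6.32%), 0 without the 3 arrays of low muscle signal (6.3%) and 1 without jak12i replicates 2 and 3 (5.19%). In week 13 the il15rb count of 12 was 1 with the groups compared alone (5.98%) and 7 without the low muscle arrays (16%), the jak3i count of 9 was 0 (3.63%) and, against the other route, 4 (11%), and the jak12i count of 7 was 11 against the other route (33.4%), 13 against pooled routes (33.7%) and 2 with the hair shaft covariate (6.34%). For the later minus the earlier effect, il15rb (9) had 2 without the low muscle arrays (6.18%), jak3i (8) had 3 with the groups compared alone (5.78%) and 4 against the other route (30.8%), and jak12i (9) had 5 with arrays of the weeks compared alone (13.5%), 22 against the other route (34.6%), 14 against pooled routes (22.9%), 1 with the hair shaft covariate (1.62%) and 4 without jak12i week 6 replicates 2 and 3 (8.68%). Fits on the groups alone had fewer arrays to estimate the spread, and for the other moves the cause was not tested.

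Against the other route, Col7a1 under jak12i at week 6 turned to 0.084 (adjusted p = 0.651), Col17a1 to 0.395 (adjusted p = 0.0345) and the week difference of Sparc under jak3i to -0.062 (adjusted p = 0.907). Against the other route the median of the members also turned, to 0.136 for week 6 jak3i, 0.175 for week 13 jak12i (0.085 against pooled routes), and -0.037 and -0.072 for the jak3i effect minus those of il15rb and jak12i. Leaving out 1 array at a time gave counts of 0 to 4 for week 6 jak3i, 0 to 7 for week 6 jak12i, 5 to 14 for gavage against pump, 6 to 16 for week 13 il15rb, 2 to 10 for jak3i, 6 to 7 for jak12i, 17 to 22 for the average, 2 to 17, 2 to 13 and 4 to 9 for the week differences of il15rb, jak3i and jak12i, and 0 to 0 elsewhere. With the replicate number as a block the counts were 1 and 4 for the treatments of week 6, 14 for gavage against pump, 12, 9, 7 and 18 at week 13, and 6, 11 and 8 for the week differences, none moved by over 1.5 times from the fit without it. Whether the numbers pair the arrays is not known. Groups of 3 to 5 arrays limit what could be called, and the arrays give no signal over background beside the deposited values.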
